A study of Ciona robusta with 133 samples.

Results

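The graded genes are 40 of 15287 gene models in Ciona robusta whose read counts at the 112-cell stage stood highest in the epidermal cell a8.22, between in the neural cells a8.19 and A8.7, and lowest in the notochord cell A8.5. They were chosen by those levels alone. A gene qualified when its mean in a8.22 reached 20 CPM (read counts scaled to a common library total) and its neural means were within 2-fold of each other, which 6650 gene models met. Qualifying genes were ranked by the smaller of 2 steps on the log2(CPM + 1) scale, from the epidermal to the higher neural mean and from the lower neural to the notochord mean, and the top 40 were kept. The smaller step was 2.56 at the first rank, 0.78 at the median member and 0.46 at the last. Levels at 112 cells are therefore a description of how the genes were picked and carry no test. Whether the same genes follow the order at other stages was tested on cells that took no part in the choice.

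Ascidian embryos cleave in an invariant pattern, so every cell has a name and a known fate. The animal a line forms the anterior epidermis and the anterior nervous system, and the vegetal A line forms notochord, endoderm and the posterior nerve cord. FGF from vegetal cells induces the neural fate in the a line, and its neighbour that receives less of the signal becomes epidermis. In the A line the same pathway separates notochord, where it is active, from nerve cord, where it is held down. The gene models carry KH identifiers that no source used here pairs with names, so no function is given for any member.

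The cells were single blastomeres dissected by hand, at 16, 32, 64 and 112 cells and at the 6-row neural plate stage, and the labels name no treatment or genetic change. The line to epidermis ran a5.3, a6.6, a7.11, a8.22, a9.43+a9.44, and that to the a-line neural cells ran a5.3, a6.5, a7.10, a8.19, a9.37+a9.38. The line to nerve cord ran A5.1, A6.2, A7.4, A8.7, A9.13+A9.14, and that to notochord ran A5.1, A6.2, A7.3, A8.5, A9.9+A9.10. A6.1 and A7.2, on the endodermal side, completed the 19 cell types. Libraries of a type from 1 embryo were summed, so n counts embryos: 133 libraries gave 87 embryo samples. A-line and a-line cells are stated to share embryos at 16 cells, while later comparisons across the lines cannot tell lineage and collection apart. Neural plate labels name 2 cells per group and give each library a side and a column, without saying which named cell a column holds; columns of 1 embryo were summed.

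Library totals ran from 1452103 to 16599891 counts with a median of 7546701. The left-side library of A6.1, embryo 5, held 7137 detected genes, against 9667 or more elsewhere, and was left out of the 32-cell fit. Both libraries labelled A7.4 from embryo 3 also stood apart. Their median correlations with A7.4 libraries of other embryos were 0.780 and 0.796, below those of 0.788 and 0.809 with A7.2. The other 5 A7.4 libraries reached 0.852 to 0.867 with A7.4 of other embryos and 0.802 to 0.828 with A7.2. A higher correlation with another type of the stage than with the own type was not rare by itself: it was seen in 27 of 133 libraries, among them all 7 of A7.3, 4 of 6 of A9.9+A9.10 and 2 of 7 of A8.5. Among members, KH.C4.226 stood at 188 CPM in that embryo and 675 to 855 CPM in the other A7.4 embryos, while KH.C2.421, named after its values were seen, stood at 121 against 14.9 to 22 CPM. The cause was not tested. At 64 cells, the calls of the main edgeR fit and the order of means are given with and without these libraries. The blocked, DESeq2 and unadjusted results that rest on A7.4 include them.

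At 112 cells the grade was steepest in KH.L170.29, the first rank. Its level was 63.9, 105, 194 and 234 CPM in the 4 a8.22 embryos. It was 4.93, 5.01, 7.62 and 19.6 CPM in the 4 a8.19 embryos and 0, 0, 7.92, 14.9 and 28.6 CPM in the 5 A8.7 embryos. It was 0, 0, 0, 1.16 and 1.53 CPM in the 5 A8.5 embryos. Epidermal embryos lay above all others, while neural and notochord embryos overlapped. KH.L116.49, the second rank, kept 3 separate bands. It stood at 745 to 1180 CPM in a8.22, 256 to 366 CPM in a8.19, 198 to 393 CPM in A8.7 and 23.9 to 46.9 CPM in A8.5. KH.C4.226, the fifth rank and the member with the highest mean CPM in a8.22, was banded in the same way. It stood at 1708 to 2262 CPM in a8.22, 595 to 925 CPM in a8.19, 537 to 859 CPM in A8.7 and 152 to 239 CPM in A8.5.

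KH.C9.665 and KH.C13.23, ranks 3 and 4, were low and scattered. KH.C9.665 stood at 13.9 to 47.9 CPM in a8.22 and 0 to 12.8 CPM in both neural cells, and its A8.5 mean of 1.10 CPM came mostly from 1 embryo at 5.36 CPM. KH.C13.23 had no count in any A8.5 embryo, where 3 counts over the group would be 0.0583 CPM, and 21.7 to 44.4 CPM in a8.22. The last members were graded weakly. KH.C3.629, rank 39, had means of 36.1 ± 12.2 CPM in a8.22 (SD, n = 4), 12.8 ± 9.89 in a8.19 (n = 4), 23.6 ± 23.1 in A8.7 (n = 5) and 5.48 ± 4.05 in A8.5 (n = 5). KH.L155.13, rank 40, went from 27.0 ± 12 CPM in a8.22 to 12.2 ± 6.03 CPM in A8.5. Just outside, KH.C10.428 and KH.C3.123 had smaller steps of 0.45 and 0.45, against 0.47 and 0.46 for these members. KH.S164.12, with the lowest mean CPM in a8.22 over embryos, stood at 5.06 to 27.4 CPM there.

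Embryos rarely kept the bands apart. All a8.22 embryos lay above every neural embryo in 13 of 40 members, against 0.722% of the qualifying genes, and all neural above every A8.5 embryo in 5, against 0.226%; both counts use the levels that chose the genes. The 5 were KH.L116.49, KH.C4.226, KH.S1352.1, KH.L117.4 and KH.C9.757. Left and right cells of 1 embryo differed by a median of 0.445 to 0.982 on the log2(CPM + 1) scale over the members, and by up to 6.78 for KH.C12.146 in a8.19 of embryo 3. Together the members took 0.760% of the counts in a8.22, 0.304% in a8.19, 0.291% in A8.7 and 0.104% in A8.5. The 5 members with the most reads in a8.22 supplied 68.5% of their reads there.

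**Figure D1:**
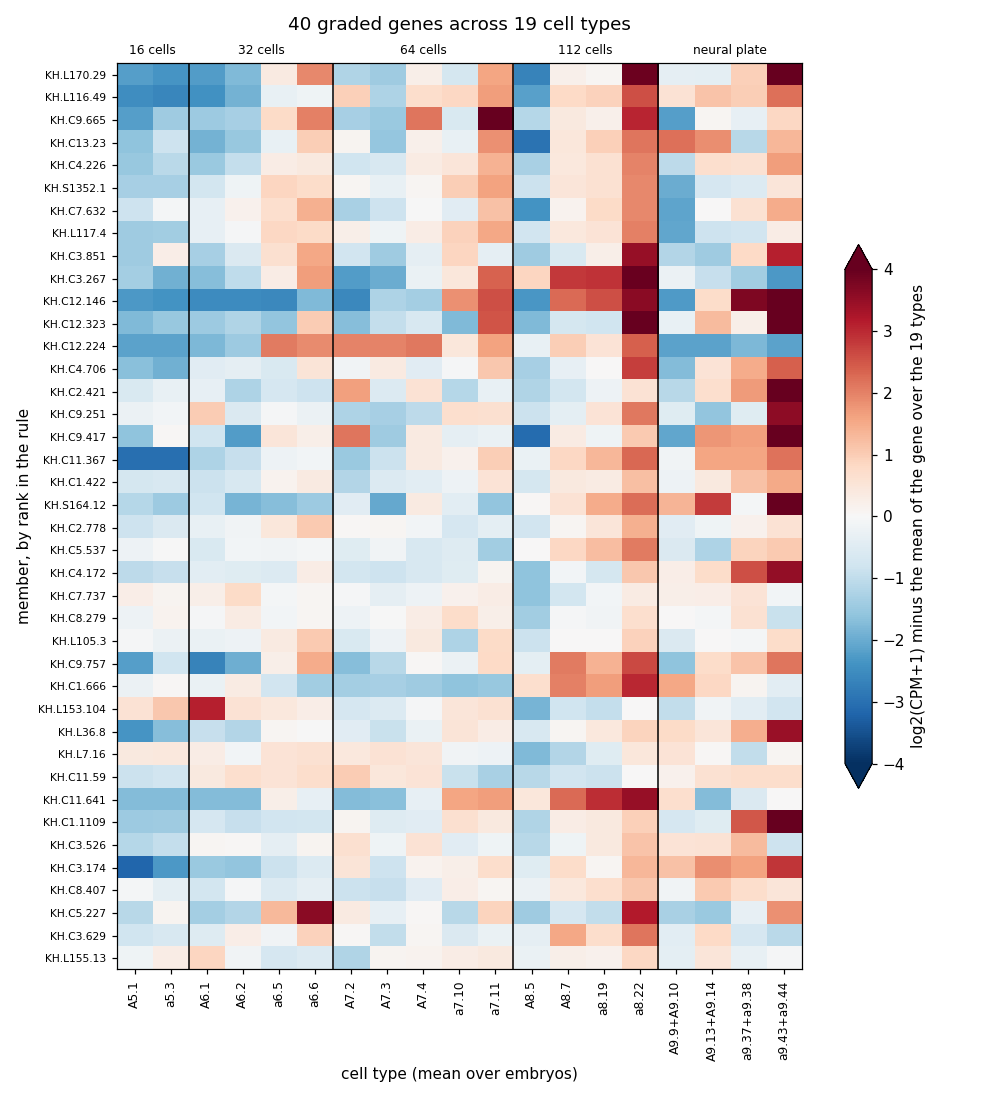
Each row is a member in rank order and each column a cell type grouped by stage. Colour gives log2(CPM + 1) of the embryo mean minus the gene's mean over the 19 types, red above and blue below. The 4 columns of the 112-cell stage were used in the choice. Outside 112 cells, 20 of 40 members were highest in a9.43+a9.44, and the share of all genes highest there was not counted. The red A6.1 cell of KH.L153.104 comes from the library left out of the 32-cell fit.

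The 16-cell embryo already held reads of most members, in both lines. By mean level, 25 members were at 5 CPM or more in A5.1 or a5.3, 9 were lower and 6 were under 1 CPM in both. The share of all gene models at these levels was not counted. The filter on low counts kept 29 of the 40 members and 9935 of the 15287 gene models at 16 cells. KH.C4.226 stood at 139, 158, 174, 194 and 199 CPM in A5.1 and at 159, 230, 233, 259 and 284 CPM in a5.3, and the cell types overlapped. KH.L116.49 was at 24.9 to 32.9 CPM in A5.1 and 19.7 to 32.8 CPM in a5.3. KH.L170.29 and KH.C13.23 were low in both, at 0 to 2.85 CPM and 0 to 5.72 CPM over the 10 samples. KH.C9.665 was at 0 in 9 of the 10, and KH.C12.146 was at most 0.931 CPM. None of the 40 members passed adjusted p 0.05 in either direction between a5.3 and A5.1 in edgeR's quasi-likelihood test, in which 29 were tested and 0.121% of all genes were higher in a5.3. At an unadjusted p under 0.05 by edgeR, 5 members were higher in a5.3. Of the 9935 genes tested, 1254 were under it in either direction. DESeq2 called 0 members. With the embryo as a block, 1 member passed, KH.C9.417, with a mean of 12.5 ± 5.65 CPM over the a5.3 samples and 3.29 ± 3.83 CPM over the A5.1 samples (SD over 5 embryos; log2 difference 2.60, adjusted p = 0.0464 in the blocked edgeR fit).

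At 32 cells members were called between the lines. Within the a line, the comparison of a6.6 with a6.5 called 0% of all genes higher. A6.2 and A6.1 were not compared. Of the 40 members, 39 passed the filter on low counts here, likewise at 64 cells and in the neural plate fit, and counts of calls are out of all 40. Between a6.5 on the neural side and A6.2, mother of notochord and nerve cord, 10 of 40 members were higher in a6.5 and 0 lower, against 5.06% and 5.05% of all genes tested. KH.C4.226 stood at 524 to 688 CPM in 5 a6.5 embryos with a median of 591, and at 139 to 382 CPM in 6 A6.2 embryos with a median of 259 (log2 difference 1.22 ± 0.20 SE, adjusted p = 0.000788 by edgeR). KH.L116.49 stood at 86.6 to 167 CPM and at 24.0 to 71.5 CPM (1.61 ± 0.30 SE, adjusted p = 0.00193 by edgeR). The embryos of both genes did not overlap. KH.C9.417 and KH.C9.757 differed most among members that met the rule for naming. KH.C9.417 stood at 10.1 to 27.1 CPM in a6.5 and 0 to 6.92 CPM in A6.2 (3.18 ± 0.92 SE, adjusted p = 0.0304 by edgeR), and its adjusted p rose above 0.05, up to 0.0647, in 7 of the 11 fits that left out 1 embryo. KH.C9.757 stood at 20.4 to 34.6 CPM and 1.11 to 10.1 CPM (2.44 ± 0.59 SE, adjusted p = 0.0121 by edgeR). With the deviating A6.1 library kept in the shared fit, 2 members passed, against 0.365% of all genes, and KH.C4.226 (adjusted p = 0.236) and KH.C9.757 (adjusted p = 0.109) did not in edgeR.

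No member was called between the epidermal-side a6.6 and the neural-side a6.5 of the same line. None of 40 passed edgeR's adjusted p 0.05 and neither did DESeq2 call any, while 0% of all genes were higher in a6.6. At an unadjusted p under 0.05 by edgeR, 4 members were higher. Of the 11229 genes tested, 285 were under it in either direction. KH.L170.29 came at 19, 24.7, 25.8, 47.6 and 62.7 CPM in a6.6 and 4.52, 6.48, 11.8, 11.9 and 23.0 CPM in a6.5, with 1 a6.5 embryo inside the a6.6 range, yet it was higher in a6.6 in all 5 embryos that gave both cells. KH.C9.757, chosen here after its values were seen, was also higher in a6.6 in all 5, at 41.7 to 95.6 CPM against 20.4 to 34.6 CPM, with no overlap (unadjusted p = 0.0450, adjusted p = 1 by edgeR). With the embryo as a block, 0 members passed. KH.C12.323 reached 25.8 CPM in 1 a6.6 embryo and at most 1.73 CPM in the other 4.

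At 64 cells the ends of the grade differed, epidermal a7.11 against notochord A7.3. Of 40 members, 11 were higher in a7.11 and 2 lower, against 4.91% and 6.55% of all genes tested. The median log2 ratio of means (CPM + 1) was 1.13 over the 40 members and 0.0129 over all genes tested. KH.C4.226 stood at 962 to 1554 CPM in 6 a7.11 embryos and at 254, 283, 310 and 427 CPM in 4 A7.3 embryos (2.02 ± 0.30 SE, adjusted p = 4.34e-05 by edgeR). KH.L116.49 stood at 353 to 622 CPM and at 18.9, 54.6, 62.8 and 131 CPM (2.91 ± 0.55 SE, adjusted p = 0.00132 by edgeR). In both genes every a7.11 embryo exceeded every A7.3 embryo. Of the 11, 7 were also among the 10 called between a6.5 and A6.2. The overlap of these calls over all genes was not counted, so the 7 cannot be read as a trait of the members.

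The largest differences that met the rule for naming were in variable genes. KH.C9.665 ran from 4.32 to 202 CPM in a7.11 with a median of 48.6, and stood at 0, 0, 0 and 2.67 CPM in A7.3 (log2 difference 7.79 ± 2.39 SE, adjusted p = 0.0350 by edgeR). KH.C3.267 ran from 20.2 to 165 CPM in a7.11 and from 0 to 9.93 CPM in A7.3 (4.57 ± 1.44 SE, adjusted p = 0.0405 by edgeR). Their embryos did not overlap, yet the adjusted p rose above 0.05 in 5 and 7 of the 10 fits that left out 1 embryo, up to 0.0988 and 0.0934, and with no filter on low counts (0.0519 and 0.0584 by edgeR). Fewer members were higher without a7.11 of embryo 7 or 8 (7 each), A7.3 of embryo 3 (6) or A7.3 of embryo 5 (5). The 2 lower members, named after their values were seen, were KH.C5.537 and KH.C11.59. KH.C5.537 had 16.7 ± 4.67 CPM in a7.11 (SD, n = 6) and 40.4 ± 25.1 CPM in A7.3 (n = 4; log2 difference -1.27 ± 0.38 SE, adjusted p = 0.0276 by edgeR). KH.C11.59 had 16.8 ± 12.7 and 58.4 ± 26.2 CPM (-1.80 ± 0.43 SE, adjusted p = 0.00649 by edgeR). The call of KH.C5.537 was lost without a7.11 of embryo 8 (adjusted p = 0.0571) or A7.3 of embryo 2 (0.179), both by edgeR. Both overlapped between embryos, and both stood against the direction seen at 112 cells.

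Within each line few members were called between the compared 64-cell types, and few of all genes were. The median log2 ratio of means (CPM + 1) of a7.11 over a7.10 was 0.515 over the 40 members and -0.00509 over all genes tested. For A7.4 over A7.3, with the A7.4 libraries of embryo 3 included, it was 0.486 and 0.0106. These shifts of the medians were not tested, and few calls do not show that the members were level. Between a7.11 and a7.10, 1 of 40 was higher, KH.C12.323, against 0.0945% of all genes. It was at 12 to 23.2 CPM in all 6 a7.11 embryos with a median of 18.8 and had no count in any of 8 a7.10 embryos, so it was at least 394-fold higher, taking 3 counts over the a7.10 group as the limit (adjusted p = 0.00720 by edgeR). With the embryo as a block its adjusted p was 0.172 and KH.S1352.1 passed instead (log2 difference 0.57, adjusted p = 0.0131 in the blocked edgeR fit), while DESeq2 called 5 members. The share of all genes called is not given for these and the other alternative fits of this stage. Without a7.10 of embryo 8, 4 members passed, and without a7.10 of embryo 2, a7.11 of embryo 4 or a7.11 of embryo 5, 2 each. Without the A7.4 libraries of embryo 3, which share the fit, 2 passed, the second being KH.C4.226 (0.93, adjusted p = 0.00342 by edgeR). Between A7.4 and A7.3 no member passed in edgeR, against 0.00859% of all genes higher in A7.4. At an unadjusted p under 0.05 by edgeR, 8 members were higher. Of the 11645 genes tested, 483 were under it in either direction. DESeq2 called 1 member. With the embryo as a block KH.L116.49 passed (1.99, adjusted p = 0.000643), and without the A7.4 libraries of embryo 3 KH.C4.226 passed (1.27, adjusted p = 0.0224), both by edgeR.

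The order of the 4 means at 64 cells, epidermal above both neural and both neural above notochord, was held by 18 of 40 members. It was held by 14 of the 23 members at 20 CPM or more in a7.11, against 12.4% of all genes at that level. Without the A7.4 libraries of embryo 3, 19 members held it. Levels in endodermal A7.2 did not follow the vegetal notochord cell for every member. KH.C9.417 was at 31.2 to 98.7 CPM in A7.2 and 0 to 11.1 CPM in A7.3, and KH.C3.174 at 322 to 542 CPM and 157 to 206 CPM. The A7.2 and A7.3 embryos of these 2 genes did not overlap, and the difference was not tested.

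**Figure D2:**
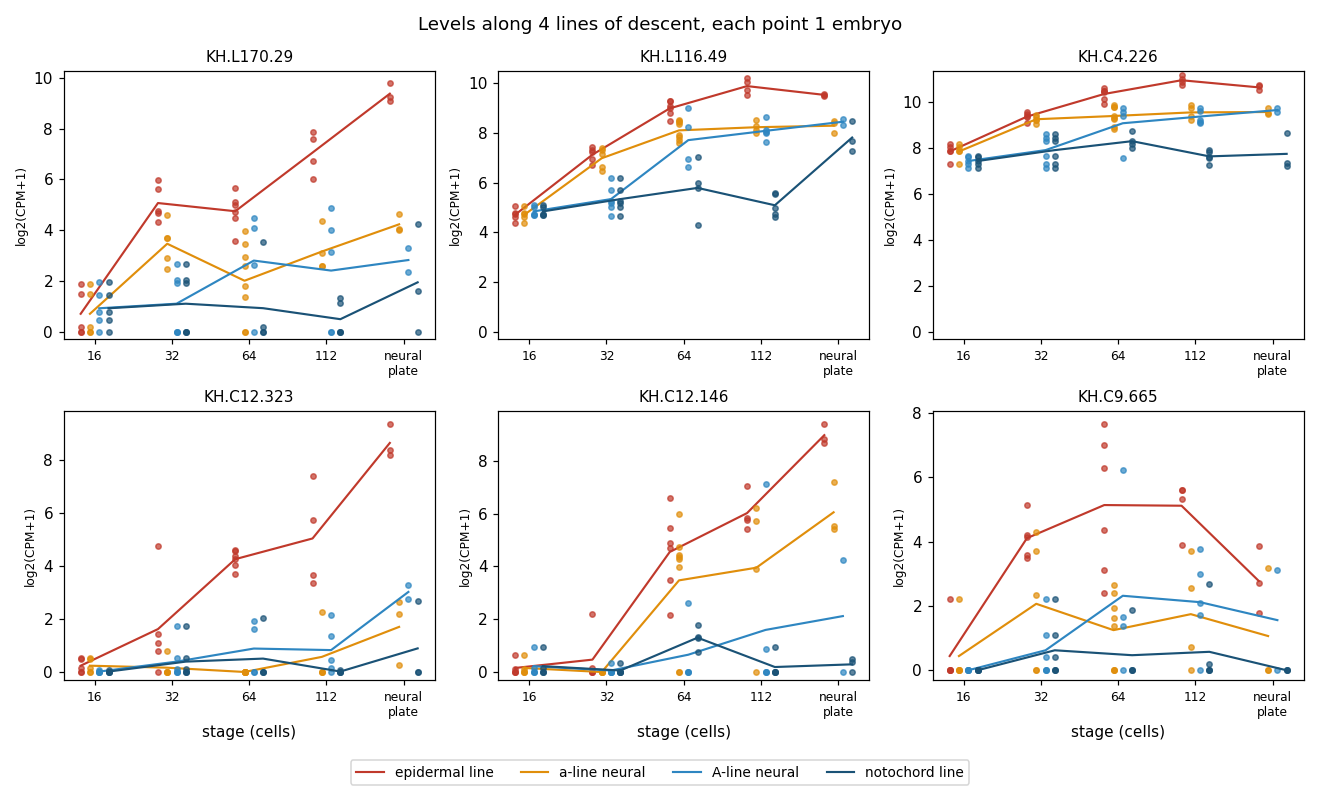
Points are embryos and lines join means of log2(CPM + 1) over embryos, for 6 members along 4 lines of descent from 16 cells to the neural plate. Before the lines part they share the points of the common cell. KH.C4.226 and KH.L116.49 separate by line at 32 cells, while KH.L170.29, KH.C12.323 and KH.C12.146 are highest in a9.43+a9.44. KH.C9.665 lies at 2.41 to 13.5 CPM there, overlapping the 4.32 to 202 CPM of a7.11, and was not called between these cells.

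At the neural plate stage the ends of the grade differed in more members. Between epidermal a9.43+a9.44 and notochord A9.9+A9.10, 16 of 40 members were higher and 0 lower, against 1.01% and 0.609% of all genes tested, and the median log2 ratio of means was 2.0 over the members and 0.00259 over all genes tested. KH.C12.146 differed most among members that met the rule for naming. It stood at 411, 458 and 677 CPM in a9.43+a9.44 and at 0, 0.301 and 0.408 CPM in A9.9+A9.10 (log2 difference 10.70 ± 1.35 SE, adjusted p = 0.00109 by edgeR). KH.C12.323 stood at 293, 327 and 655 CPM and at 0, 0 and 5.36 CPM (7.66 ± 1.26 SE, adjusted p = 0.00661 by edgeR). Epidermal embryos lay above all notochord embryos by a wide gap in both. KH.C4.226 again differed, at 1438, 1624 and 1681 CPM and at 148, 161 and 405 CPM (2.75 ± 0.32 SE, adjusted p = 0.000683 by edgeR). Of the 16 members, 6 were also among the 11 called between a7.11 and A7.3. They were KH.L116.49, KH.C4.226, KH.S1352.1, KH.L117.4, KH.C9.757 and KH.L36.8, the last of which is named after its values were seen. Over all genes, 119 were higher in a9.43+a9.44 and 572 in a7.11, and their overlap was not counted.

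The epidermal step within the a line reached 3 of 40 members, against 0.457% of all genes higher and 0.313% lower in a9.43+a9.44 than in a9.37+a9.38, and no member was lower. KH.L170.29 stood at 546, 607 and 886 CPM in the epidermal and 15.0, 15.6 and 23.8 CPM in the neural cells (5.26 ± 0.90 SE, adjusted p = 0.0183 by edgeR). KH.C12.323 stood at 293, 327 and 655 CPM and at 0.190, 3.57 and 5.31 CPM (7.12 ± 1.23 SE, adjusted p = 0.0192 by edgeR). KH.L36.8 stood at 517, 535 and 637 CPM and at 133, 137 and 157 CPM (2.03 ± 0.37 SE, adjusted p = 0.0266 by edgeR). All 3 separated the embryos without overlap, and leaving out any 1 of the 6 embryos moved each above 0.05, the lowest adjusted p being 0.0516 for KH.L170.29, 0.0535 for KH.C12.323 and 0.0804 for KH.L36.8. With no filter on low counts KH.L170.29 (adjusted p = 0.0750) and KH.C12.323 (0.0847) also missed it in edgeR. With the embryo as a block 8 members were higher, against 0.575% of all genes. DESeq2 called 10, for which the share of all genes is not given.

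The step from A9.9+A9.10 to A9.13+A9.14 was not called for any member in edgeR, against 0.101% of all genes. At an unadjusted p under 0.05 by edgeR, 9 members were higher. Of the 11826 genes tested, 753 were under it in either direction. DESeq2 called 3 members higher in A9.13+A9.14, and the edgeR fit with the embryo as a block called 2, KH.C9.417 and KH.C3.174. The share of all genes called by these alternative fits is not given. A9.13+A9.14 came from 2 embryos. KH.C9.417 stood at 34.2 and 53.7 CPM in A9.13+A9.14 and at 0, 0 and 6.32 CPM in A9.9+A9.10, with no overlap (blocked adjusted p = 0.0118 by edgeR). KH.C3.174 stood at 854 and 1543 CPM and at 284, 578 and 1382 CPM, and the groups overlapped (blocked adjusted p = 0.00761 by edgeR).

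The full order of means held in 20 of 40 members at the neural plate stage. Of the 26 members at 20 CPM or more in a9.43+a9.44, 18 held it, against 10.2% of all genes at that level. All epidermal embryos lay above every neural embryo in 16 of the 40 members, all of them among these 26, against 4.02% of all genes at that level. Members lost to the order included KH.C13.23, with no count in any A8.5 embryo but 0, 28 and 75.4 CPM in A9.9+A9.10, against 0, 10.2 and 44.2 CPM in a9.43+a9.44. The 40 genes picked by the mirrored rule, notochord over neural over epidermis at 112 cells, held their own order in 12 members at 64 cells and in 14 at the neural plate. The share of all genes in the mirrored order was not computed, and the difference between the sets was not tested.

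**Figure D3:**
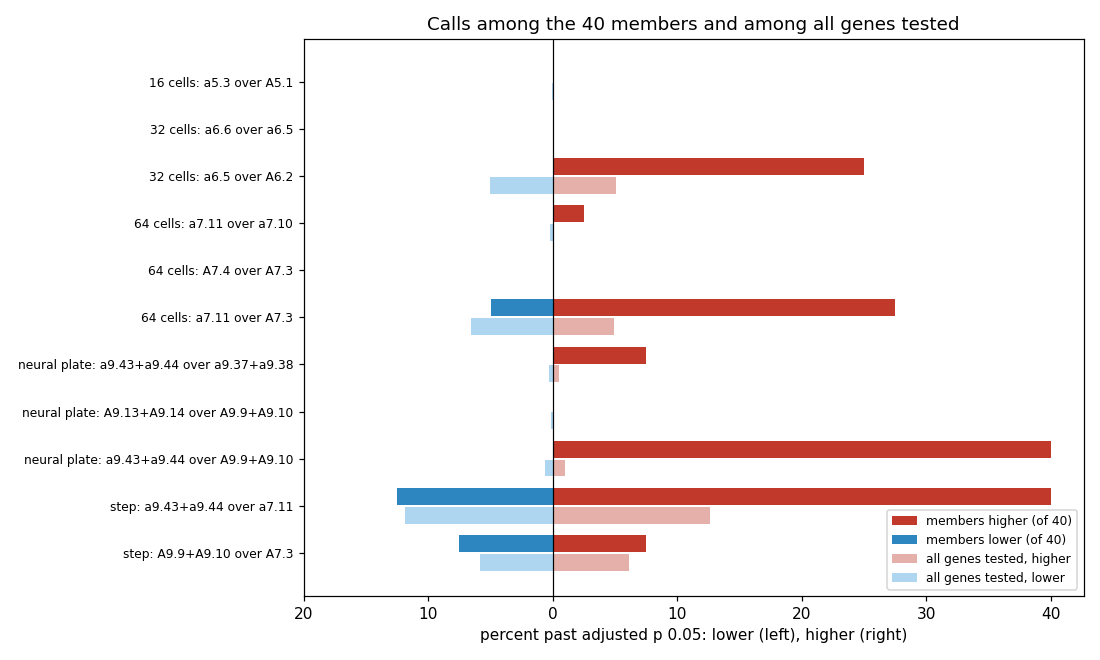
Bars give the percent past adjusted p 0.05 in edgeR's quasi-likelihood test for 11 comparisons, to the right for higher and to the left for lower in the first-named cell. Dark bars are the 40 members and pale bars all genes tested. On the higher side the members exceed all genes most visibly in the comparisons of a6.5 with A6.2, a7.11 with A7.3 and a9.43+a9.44 with A9.9+A9.10, with 10, 11 and 16 members called, and in the step from a7.11 to a9.43+a9.44, with 16.

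From 64 cells to the neural plate, with all 40 members tested, most called members of the epidermal line rose. Between a9.43+a9.44 and a7.11, 16 of 40 members rose and 5 fell, against 12.6% and 11.9% of all genes. The number that fell was near the background. KH.S164.12 rose from 0 to 1.32 CPM in 6 embryos to 56.6, 75.7 and 87.2 CPM (log2 difference 7.50 ± 1.58 SE, adjusted p = 0.00114 by edgeR). KH.L170.29 rose from 10.8 to 49.0 CPM, with a median of 27.9, to 546, 607 and 886 CPM (4.70 ± 0.74 SE, adjusted p = 9.03e-05 by edgeR). Neither gene overlapped between the stages. Between A9.9+A9.10 and A7.3, 3 members rose and 3 fell, against 6.13% and 5.86% of all genes, which is near the background. KH.S164.12 was among the 3, from 2 counts over 4 A7.3 embryos to 1.45, 5.95 and 22.6 CPM, 129 times the rate per read (95% interval from counting error alone 35.2 to 1074; adjusted p = 0.0226 by edgeR), and its adjusted p was 0.0641, 0.0674 and 0.0683 without A7.3 of embryo 3, A7.3 of embryo 5 and A9.9+A9.10 of embryo 3. Without A7.3 of embryo 5, 1 member rose. KH.C3.174 rose in this line from 157 to 206 CPM to 284, 578 and 1382 CPM (2.11 ± 0.40 SE, adjusted p = 0.00200 by edgeR). These steps compare different collections of embryos.

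The 5 members that fell in the epidermal line were KH.C3.267, KH.L153.104, KH.C12.224, KH.S1352.1 and KH.L117.4; without any 1 of the 3 a9.43+a9.44 embryos, 3 passed. KH.C3.267 stood at 238 to 344 CPM in a8.22 but at 1.25, 3.58 and 3.69 CPM in a9.43+a9.44, below the 20.2 to 165 CPM of a7.11 (-5.01 ± 1.67 SE, adjusted p = 0.0324 by edgeR), with an adjusted p of 0.0931 to 0.120 without any 1 of the a9.43+a9.44 embryos. KH.L153.104 fell from 32.0 to 56.0 CPM to 14.4, 15.5 and 16.2 CPM (-1.32 ± 0.37 SE, adjusted p = 0.0100 by edgeR). KH.C12.224 had no count in the 3 a9.43+a9.44 embryos and stood at 0 to 38.2 CPM in a7.11; it passed the test in this step as well as in the notochord step, and is named after its values were seen.

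KH.S1352.1 and KH.L117.4 moved together in nearly every sample. Both fell in the epidermal line, KH.S1352.1 from 552 to 1150 CPM to 314, 321 and 423 CPM (-1.02 ± 0.23 SE, adjusted p = 0.00200 by edgeR) and KH.L117.4 from 228 to 477 CPM to 124, 143 and 166 CPM (-1.12 ± 0.24 SE, adjusted p = 0.00144 by edgeR). Both fell in the notochord line too, KH.S1352.1 from 157 to 230 CPM to 47.8, 52.7 and 88.7 CPM (-1.63 ± 0.24 SE, adjusted p = 0.000337 by edgeR) and KH.L117.4 from 77.2 to 123 CPM to 19.6, 26.5 and 34.2 CPM (-1.86 ± 0.29 SE, adjusted p = 0.000395 by edgeR). The order of cell types was kept while the levels dropped: at the neural plate KH.S1352.1 stood at 144 to 198 CPM in the neural cells a9.37+a9.38 and at 123 and 193 CPM in A9.13+A9.14, between the epidermal and notochord values. The ratio of the 2 genes had a median of 2.17 over 87 embryo samples. The ratio of their mean levels by cell type ran from 1.63, in A6.1 with embryo 5 included, to 2.57. The extremes over samples were 0.242, in A6.1 of embryo 5, and 2.84. How reads shared by similar gene models were assigned is not given in the sources used here, so these may not be independent measurements.

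**Figure D4:**
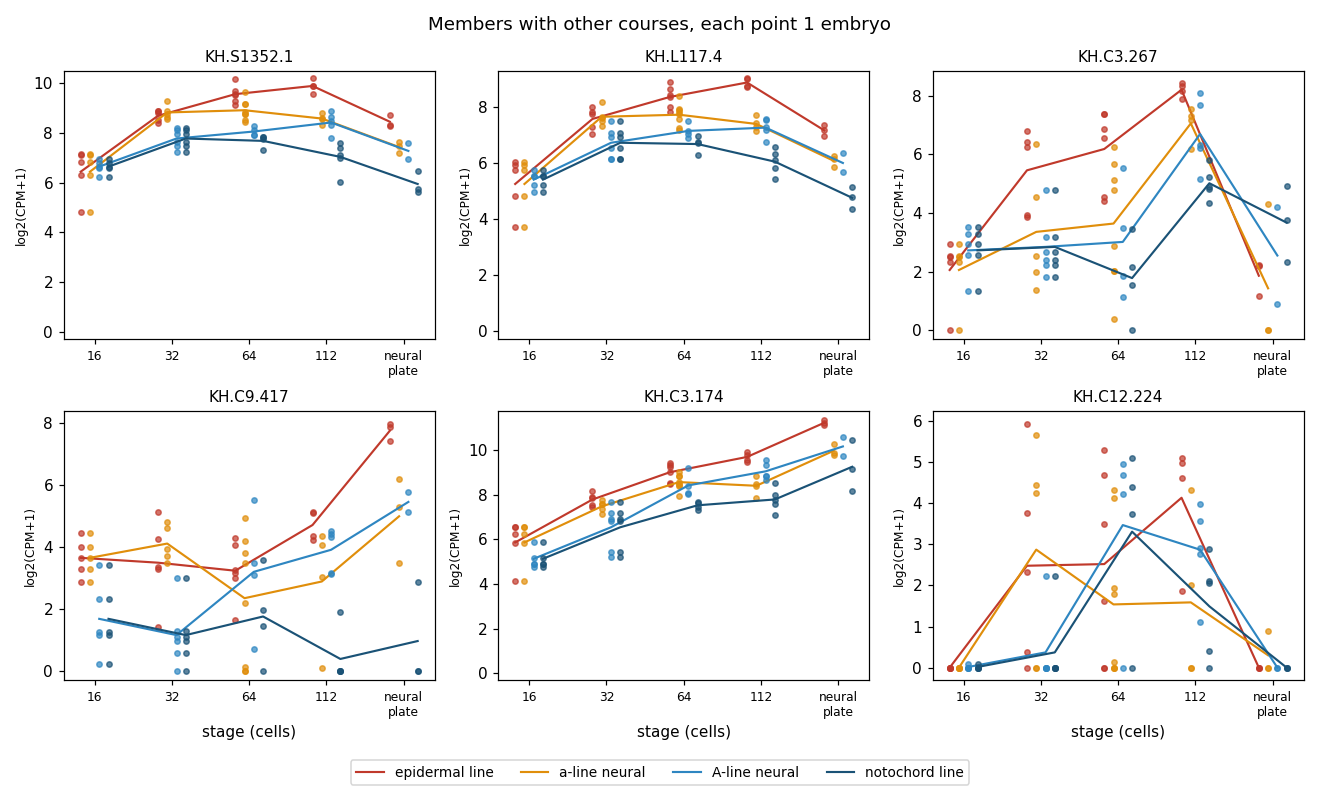
Points are embryos and lines join means of log2(CPM + 1), as for the steeper members, for 6 members with other courses. KH.S1352.1 and KH.L117.4 keep their order while falling after 112 cells. KH.C3.267 loses its order at the neural plate, where a9.43+a9.44 lies at 1.25 to 3.69 CPM. In the epidermal line KH.C9.417 rises late and the mean of KH.C3.174 rises at each stage. KH.C12.224 is at 0 in all a9.43+a9.44 embryos.

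By reads, the members' summed share grew in every line except to the notochord at 112 cells. It was 0.0988% in a5.3, 0.262% in a6.6, 0.452% in a7.11, 0.760% in a8.22 and 1.06% in a9.43+a9.44. In the notochord line it was 0.0777% in A5.1, 0.129% in A6.2, 0.137% in A7.3, 0.104% in A8.5 and 0.195% in A9.9+A9.10. The epidermal share exceeded the notochord share at all stages, with the 112-cell values fixed by the choice. In a9.43+a9.44 the 5 members with the most reads in a8.22 supplied 49.7% of the members' reads.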

How the data were processed

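The authors deposited whole-number read counts per gene model, not normalized, from single-end libraries of single cells amplified with a low-input template-switching kit (per the labels' protocols). STAR 2.7.10a is the aligner that the submitters' processing notes name; the sources used here give no build, annotation, counter or strand, so overlapping or similar gene models are uncertain. The counts carry no molecular identifiers, so intervals and limits cover counting error only. Labels name the embryo of each cell; counts were summed by cell type and embryo. Levels are CPM of the embryo total. Members were found by the rule on means over libraries. Comparisons used edgeR 4.0.16 (R 4.3.3) quasi-likelihood tests with TMM and filterByExpr, 1 fit per stage or lineage, with Benjamini-Hochberg adjustment over all genes tested and a threshold of 0.05. SE is the log2 difference divided by the root of F. Alternatives were DESeq2 1.42.0, relative log expression scaling, no filter, each embryo left out, and the embryo as a block. Cell types of 1 line and stage share embryos by the labels, which pairs them. Deviations of paired samples correlated with a mean r of 0.407 at 16 cells (a5.3 with A5.1), 0.504 for a6.6 with a6.5, 0.335 for A7.4 with A7.3, 0.0812 for a7.11 with a7.10, and 0.0651 and 0.0863 for the neural plate pairs. The members, lists and tests were chosen with earlier results of these data known. Named members are ranks 1 to 5, 39 and 40 with the genes ranked 41 and 42, up to 2 per direction and comparison whose higher group averages at least 5 CPM and whose embryos do not overlap, up to 2 per class at 16 cells, and the highest and lowest in a8.22. All columns matched a sample. No sequence is printed, because the identifiers could not be paired with a reference.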

Additional observations from a re-analysis of the deposited data

Results flagged for a closer look

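In 5 of 64 groups of 4 to 10 embryos examined for the members named, 1 embryo lay far from the rest; chance nominally flags about 1 in 20 such groups, a rate that does not hold for groups nearly all at 0, as in KH.C9.665 and KH.S164.12. KH.C4.226 stood at 1.34 CPM in A6.1 of embryo 5, whose single library was left out of the 32-cell fit, against 176 to 255 CPM in the other embryos. KH.C9.417 stood at 6.92 CPM in A6.2 of embryo 3, against 0 to 1.43 CPM. KH.C9.665 stood at 2.67 CPM in A7.3 of embryo 2 and at 0 in the other 3 A7.3 embryos, and at 5.36 CPM in A8.5 of embryo 3, against 0 to 0.151 CPM. KH.S164.12 stood at 0.128 CPM in A7.3 of embryo 4, against 0 in the others, which is 2 counts.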

How the results depend on the processing

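Of the 40 members, 38 were kept with TMM-scaled CPM, 30 with means over embryos, 35 with a pseudocount of 5, and 28 to 37 with single embryos left out. Members higher moved beyond 1.5-fold under these alternatives. The counts are given without the share of all genes that the same fit called, except where stated. A larger count therefore does not show a larger excess of members over all genes. With the replicate block (embryo), 1 passed at 16 cells, 1 between A7.4 and A7.3, 8 between a9.43+a9.44 and a9.37+a9.38, and 2 for A9.13+A9.14 over A9.9+A9.10. DESeq2 gave 5 between a7.11 and a7.10, 1 between A7.4 and A7.3, 10 and 3 in those neural plate comparisons, and 6 rising from A7.3 to A9.9+A9.10. With no filter 1 passed for A9.13+A9.14 over A9.9+A9.10, and with the A6.1 library kept 2 between a6.5 and A6.2. Without A7.4 of embryo 3, chosen after seeing the data, 2 passed between a7.11 and a7.10 and 1 between A7.4 and A7.3. Leaving out single embryos gave 7 to 11 higher between a6.5 and A6.2, 1 to 4 between a7.11 and a7.10, 0 to 1 between A7.4 and A7.3, 5 to 11 higher and 1 to 2 lower between a7.11 and A7.3, 0 to 1 in the a-line and 0 to 2 in the A-line neural plate comparison, and 13 to 19 between a9.43+a9.44 and A9.9+A9.10. It gave 15 to 16 rising and 3 to 5 falling in the epidermal step, 1 to 3 rising and 2 to 3 falling in the notochord step, and 15 to 20 and 18 to 21 members in order at 64 cells and the neural plate. For named members, 292 alternative fits kept the call, 53 lost it, and none reversed it. Groups held 2 to 8 embryos; no detection limit was computed, and the causes of these shifts were not tested.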
